A study of Arabidopsis thaliana with 7 samples.

Results

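Wild-type (WT) Arabidopsis seedlings kept on medium with cadmium sulfide quantum dots (CdS QDs) at 40 mg/L had far more transcript of BGLU28, a beta-glucosidase gene that marks sulfur limitation, than seedlings kept on 0 mg/L. At least 2-fold higher were also 4 of 13 annotated genes of sugar transport and starch, 7 of 23 class III peroxidase genes and 22 of 69 plastid-encoded genes, against 2.37% of all 13356 annotated genes. These counts include genes too dim to compare well, 9 of the 22 plastid-encoded ones among them. All gene families counted here were chosen with earlier results of these data known, so their shares are a description. The ATP sulfurylase gene APS4, the methionine sulfoxide reductase gene MSRB6 and the copper chaperone gene CCS had lower levels. MSRB5, the neighbour of MSRB6, was higher. At least 2-fold lower were 5 of 16 annotated GDSL lipase genes, 6 of 19 lipid transfer protein genes and 4 of 25 pectin-modifying genes. In the same families 1, 1 and 2 genes were 2-fold higher. Of all annotated genes 1.21% were 2-fold lower, and dim genes are counted here too. Of the 1929 genes bright enough to compare, 96 were at least 2-fold higher at 40 mg/L and 46 at least 2-fold lower. Those counts are 4.98% and 2.38% of the genes compared, or 7.36% for both directions.

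The comparison is between 2 of the 7 arrays of the study, the WT array at 40 mg/L and the WT array at 0 mg/L. A gene entered it when the brighter of these 2 arrays reached log2 6, which left 1929 of 13356 annotated genes, each represented by 1 probe set. Plants of accession Ler-0 grew for 14 days at 24 °C, 30% humidity and 16 h of light on Murashige and Skoog medium. They then spent 21 days on the same medium with CdS QDs added at 40 mg/L, a dose below the one the labels call inhibitory for WT, or with none. The other arrays were WT at 80 mg/L, the inhibitory dose, and the mutants atnp01 and atnp02, selected for resistance to the QDs, at 80 and 0 mg/L. All 7 arrays are of whole seedlings, without separation of root and shoot, and the sources used here do not name the genes disrupted in the mutants. Each group had 1 array, so every value below is a single measurement, differences carry no error, and no p-value was computed. They do not say either whether the RNA of an array came from 1 or several plants.

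CdS QDs are nanometre-sized semiconductor crystals of a cadmium salt. Plants bind cadmium with thiols such as glutathione and phytochelatins, whose synthesis draws on assimilated sulfur, and cadmium also disturbs copper and iron handling and raises reactive oxygen species. Reactive oxygen oxidises methionine in proteins, and methionine sulfoxide reductases reverse that oxidation.

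Values are log2 levels, and a difference is the level at 40 mg/L minus the level at 0 mg/L. A difference of 1 is called 2-fold, which holds only if the values are plain log2 intensities. The 2 arrays were alike in overall signal, with medians of 3.48 at 40 mg/L and 3.43 at 0 mg/L, lower quartiles of 1.29 and 1.32, and 3874 and 3842 probe sets at log2 6 or above. Across all non-control probe sets their values correlated at r = 0.98. Probe sets of the poly-A spike-ins, a control for amplification, were dim, at mean levels of 2.92 at 40 mg/L and 3.22 at 0 mg/L. Both levels lie under the array medians, so their mean difference of -0.30 over 27 probe sets is not a reliable measure of amplification. Hybridization spike-ins, at 7.46 and 7.58, differed by a mean of -0.12 over 18. Probe sets of Arabidopsis actin, GAPDH and ubiquitin differed by a mean of 0.09 over 16. The reference genes GAPC2 (10.36 at 40 mg/L and 10.38 at 0 mg/L) and PEX4 (6.92 and 6.87) were level on the 2 arrays.

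The seedling label could be checked with few markers. Of 10 root markers the annotation held PYK10 alone, at 10.63 at 40 mg/L and 10.49 at 0 mg/L. Of 10 leaf markers it held RCA, the Rubisco activase gene, at 11.57 and 11.61, and AT2G26500 at 10.54 and 10.75. Root and leaf transcripts were therefore both abundant on both arrays, and none of these 3 genes was 2-fold apart. No member of the flower and seed marker lists was on the annotation.

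Most of the genes bright enough to compare moved little. The median difference over the 1929 genes was -0.001, the middle 50% of genes lay between -0.28 and 0.28, and 1425 genes, or 73.9%, were within 0.5 of 0. The upper tail was longer than the lower one, with the 95th percentile at 0.99 and the 5th at -0.74. At 4-fold or more, 21 genes were higher and 4 lower, and at 8-fold or more 6 were higher and 1 was lower. Many of the larger differences involve a level under log2 6 on one array. Of the 96 higher genes, 61 were below log2 6 at 0 mg/L, and of the 46 lower genes, 27 were below it at 40 mg/L. Among the 1521 genes that reached log2 6 on both arrays, 35 were 2-fold higher and 19 lower. In whole seedlings, fewer cells of a type and less RNA per cell cannot be told apart for any of these genes.

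**Figure D1:**
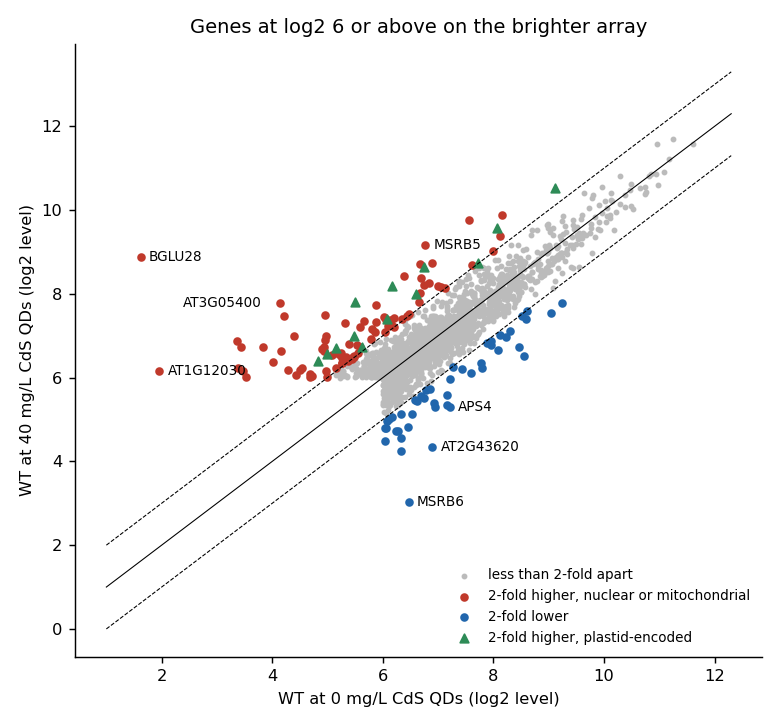
Level of each of the 1929 genes at 40 mg/L (vertical axis, log2) against its level at 0 mg/L (horizontal axis, log2), 1 array each; the solid line marks equal levels and the dashed lines mark 2-fold. Genes 2-fold higher lie above the upper dashed line, with BGLU28 at 8.89 against 1.62 the farthest from it, and MSRB6 at 3.02 against 6.47 lies farthest below the lower one.

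BGLU28 had a level of 8.89 at 40 mg/L, against 1.62 at 0 mg/L, a difference of 7.27. The 0 mg/L level was close to the array's lower quartile, so the size of this difference depends on how dim signals were treated. In the mutants the same gene was at 8.56 in exposed atnp01 and 8.19 in exposed atnp02, against 1.19 and 2.72 in the unexposed mutants, so the 4 exposed arrays were high and the 3 unexposed ones low with no overlap. AT1G12030 had a level of 6.16 at 40 mg/L and 1.96 at 0 mg/L, also from near the lower quartile. These were the 2 genes of the 96 whose lower level lay under log2 2.

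Among the next highest differences were genes of carbohydrate transport, wall peroxidases and defence. AT3G05400, of the sugar transport and starch list, had a level of 7.78 at 40 mg/L and 4.14 at 0 mg/L. AT1G62760, listed with pectin modification, stood at 6.87 and 3.36. AT5G19890, of the class III peroxidase list, stood at 6.73 and 3.44. PDF1.2b encodes a plant defensin induced by jasmonate and ethylene, and its level was 6.73 at 40 mg/L and 3.83 at 0 mg/L. It was read on a probe set whose probes may also match related sequences. AMY1, an alpha-amylase gene of starch breakdown, was at 6.23 and 3.38, Prx37, a peroxidase gene, at 6.15 and 3.47, and SAG29, a sugar transporter gene expressed in senescing leaves, at 6.98 and 4.4. JRG21, a jasmonate-regulated gene, was higher by 2.49, AT2G43590 of the chitinase family by 2.55, and the methionine sulfoxide reductase gene MSRB5 by 2.40. AT4G31330 (3.27), AT1G30700 (2.48) and AT2G25625 (2.36) completed the 15 highest, and none of these 3 has a symbol in the gene table.

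MSRB6 had the lowest difference, with a level of 3.02 at 40 mg/L, against 6.47 at 0 mg/L. AT2G43620, a chitinase-family gene, followed at 4.35 and 6.89. AT5G12050 stood at 4.26 and 6.32, and AT4G16980 at 6.52 and 8.55. These were the 4 genes at least 4-fold lower. APS4, which encodes an ATP sulfurylase, the first enzyme of sulfate assimilation, was at 5.31 at 40 mg/L and 7.21 at 0 mg/L. CCS, the copper chaperone that loads copper into superoxide dismutase, was at 6.22 and 7.79. The other genes of the 15 lowest were known by locus code only: AT5G62280 (-1.82), AT1G60590 (-1.77), AT2G10940 (-1.73), AT5G63180 and AT5G55450 (-1.64 each), AT2G34620 (-1.57), AT4G22490 (-1.56), AT1G15260 (-1.55) and AT1G09750 (-1.52). In all, 96 of the 142 genes 2-fold apart had no symbol.

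**Figure D2:**
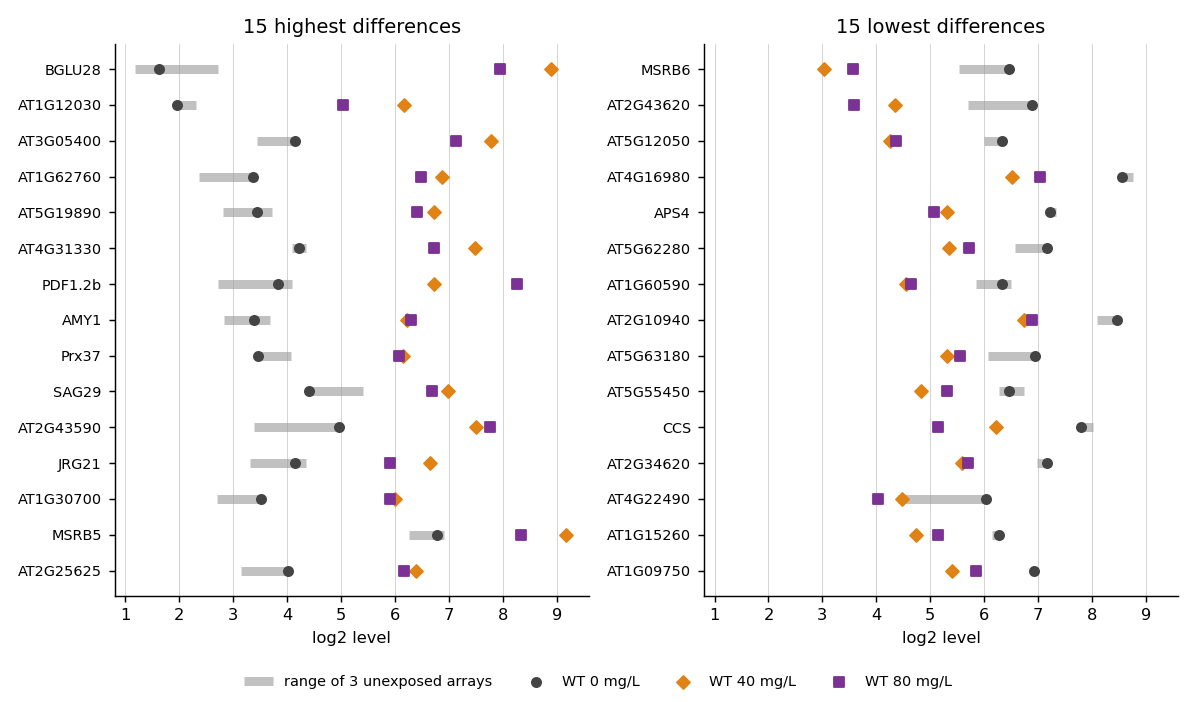
Levels (log2, horizontal axes) of the 15 genes with the highest and the 15 with the lowest difference at 40 against 0 mg/L; circles, diamonds and squares are the WT arrays at 0, 40 and 80 mg/L, and grey bars span the 3 unexposed arrays of WT, atnp01 and atnp02. All 15 diamonds on the left lie above their bar and 14 of those on the right lie below it, the exception being AT4G22490, whose bar reaches 4.4.

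The gene lists put these genes among the other annotated members of their pathways. The annotation held 5 of the 33 entries of the sulfur list, and 4 of them were bright enough to compare. BGLU28 and AT1G04770 (7.20 at 40 mg/L and 5.58 at 0 mg/L) were 2-fold higher and APS4 was 2-fold lower. APS3, another ATP sulfurylase gene and too dim for the comparison, was at 5.55 and 4.95. The sulfite reductase gene SIR, which acts downstream of ATP sulfurylase, differed by -0.13. Outside that list, MGL, the methionine gamma-lyase gene of methionine breakdown, was at 7.10 and 5.86. Within sulfur metabolism the differences thus ran both ways.

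The methionine sulfoxide reductase genes MSRB5 and MSRB6 ran in opposite directions. MSRB5 had a level of 9.17 at 40 mg/L and 6.77 at 0 mg/L, while its neighbour on the chromosome, MSRB6, had 3.02 and 6.47. In atnp01 MSRB5 was at 8.68 when exposed and 6.25 when not, and MSRB6 at 2.32 and 5.53. In atnp02 the levels were 8.70 and 6.91 for MSRB5 and 2.83 and 5.84 for MSRB6. All 3 lines thus had MSRB5 high and MSRB6 low under exposure, and this pair was 1 of 4 adjacent gene pairs, of 178 bright enough to compare, in which both genes were 2-fold apart. The other bright genes of the reactive oxygen list were lower by less than 2-fold: the ascorbate peroxidase genes TAPX (-0.50) and SAPX (-0.28) and AT3G11630 (-0.27). MSRB9, another methionine sulfoxide reductase gene and too dim for the comparison, was at 5.69 at 40 mg/L and 5.93 at 0 mg/L.

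Of the 13 annotated genes of the sugar transport and starch list, 4 were 2-fold higher and 1 was 2-fold lower, with a median of 0.47. Besides AT3G05400, AMY1 and SAG29, which reached log2 6 on the 40 mg/L array alone, the 2-fold higher genes included SFP1, a senescence-linked sugar transporter gene, at 8.69 at 40 mg/L and 7.61 at 0 mg/L. SWEET11, which exports sucrose in leaves, differed by 0.53, SFP2 by 0.47 and the vacuolar fructose transporter gene SWEET17 by 0.09. Too dim for the comparison and below 0 were SWEET16, another vacuolar sugar transporter gene, at 3.62 at 40 mg/L and 4.66 at 0 mg/L, TMT1 (-0.67) and APL4 (-0.24).

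Class III peroxidases are secreted enzymes that use hydrogen peroxide to cross-link wall phenolics. Of 23 on the annotation 7 were 2-fold higher and none was 2-fold lower, with a median of 0.30. Of the 6 bright enough to compare, 4 were 2-fold higher, but 3 of these passed the brightness limit through the 40 mg/L array alone. AT5G19890 and Prx37 are given above. PRX52 had a level of 6.91 at 40 mg/L and 4.95 at 0 mg/L, and AT2G37130 stood at 8.39 and 6.69. PRXR1, the brightest of them, differed by 0.51 and AT1G71695 by -0.86, and the dim AT3G01190 differed by -0.83. The median of the bright genes was 1.83, and it was 0.51 with the limit at log2 5 or at log2 7.

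Genes that modify the cell wall went both ways. In the pectin list AT1G60590 (4.55 at 40 mg/L and 6.32 at 0 mg/L), AT5G63180 (5.31 and 6.95) and AT5G48900 (5.74 and 6.85) were 2-fold lower, and AT1G62760 was 2-fold higher. The median of the 7 bright members was -0.50, while over all 25 annotated members it was 0.00, with 2 higher and 4 lower by 2-fold. EXPA8, an expansin gene of wall loosening, was at 7.12 at 40 mg/L and 8.30 at 0 mg/L. The other 3 bright genes of the expansin and xyloglucan endotransglucosylase list were higher by 0.45 (EXGT-A3), 0.41 (EXPA4) and 0.13 (XTH19). RALFL34, which encodes a peptide signal of the RALF family, had a level of 6.79 at 40 mg/L and 7.95 at 0 mg/L.

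GDSL lipases and lipid transfer proteins include enzymes and carriers of cutin and wax deposition. Of 7 bright GDSL genes, 3 were 2-fold lower and none higher. AT3G16370 stood at 7.54 at 40 mg/L and 9.04 at 0 mg/L, AT1G29660 at 6.66 and 8.09, and its chromosomal neighbour AT1G29670 at 6.82 and 7.88. Over all 16 annotated GDSL genes the median was -0.43, with 5 lower and 1 higher by 2-fold. Of 8 bright lipid transfer protein genes, AT2G10940 (6.73 and 8.47), AT5G55450 (4.82 and 6.46) and AT4G22490 (4.48 and 6.03) were 2-fold lower, while AT3G18280 (0.89) and AT1G48750 (0.71) had the highest differences. Over all 19 annotated members the median was -0.07, with 6 lower and 1 higher by 2-fold.

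Glucosinolates are sulfur-containing defence compounds of the cabbage family. The annotation held 4 of the 35 entries of the list of their synthesis and hydrolysis. All 4 were bright enough to compare, with a median of -0.63, and AOP3 alone was 2-fold lower. AOP3, of side-chain modification, was at 7.40 at 40 mg/L and 8.60 at 0 mg/L. BCAT4, of methionine chain elongation, was at 8.99 and 9.79, and the differences of AT2G31790 and UGT74B1 were -0.45 and 0.10. Outside that list, GTR2, a glucosinolate transporter gene, was at 7.17 at 40 mg/L and 5.80 at 0 mg/L.

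**Figure D3:**
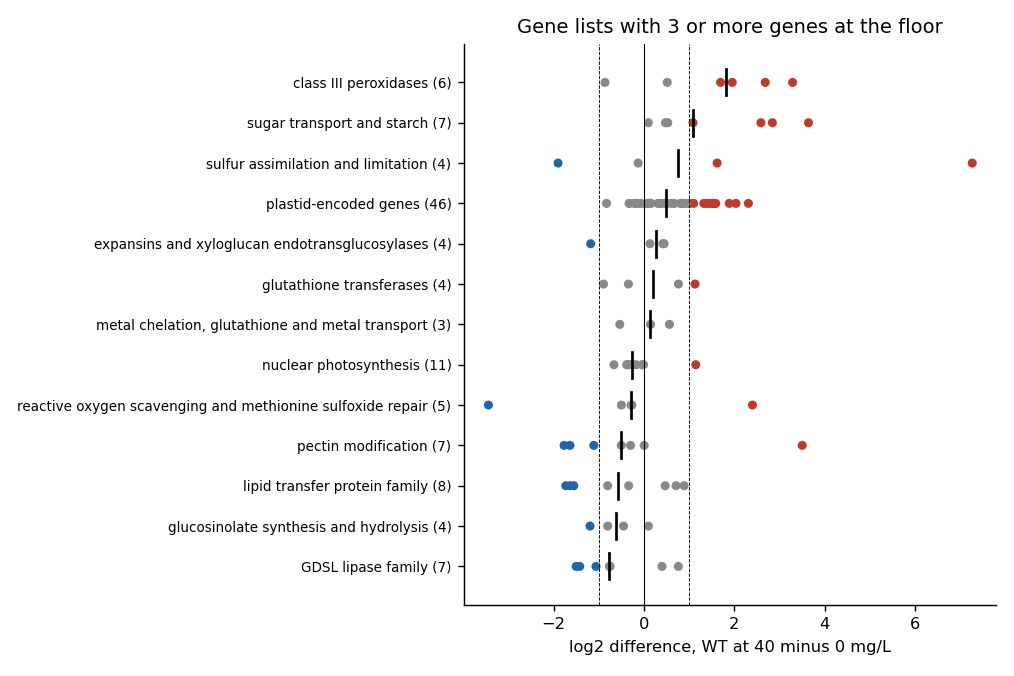
Log2 difference at 40 against 0 mg/L (horizontal axis) of each bright gene in the gene lists that had 3 or more such genes, whose number is in brackets; short bars are list medians, dashed lines mark 2-fold, and red and blue points are 2-fold higher and lower. Medians run from 1.83 for class III peroxidases to -0.77 for GDSL lipases, but the peroxidase median is 0.51 with the limit at log2 5 or 7 and 0.30 over all annotated members.

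Among genes of metal binding, glutathione and its transferases, 1 of the 7 bright genes was 2-fold apart. The metallothionein gene MT1C was at 10.37 at 40 mg/L and 9.80 at 0 mg/L. The glutathione reductase genes GR1 and GR differed by 0.14 and -0.54. Of the tau-class glutathione transferase genes, GSTU27 was 2-fold higher, at 8.17 and 7.04, GSTU16 differed by 0.76, GSTU18 by -0.35 and GSTU20 by -0.90. None of the 3 annotated genes of iron deficiency and storage reached log2 6 on either array. In the cold and abscisic acid list the dehydrin genes COR47 and LTI30 differed by 0.20 and -0.63.

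Some higher genes outside the lists are named here after their values were seen, as were MGL, RALFL34 and GTR2 above. OSM34, an osmotin-like defence gene, was at 9.88 at 40 mg/L and 8.16 at 0 mg/L. ALDH7B4, an aldehyde dehydrogenase gene of stress tolerance, was at 9.01 and 7.99. AT4G33150, which the gene table names as a lysine-ketoglutarate reductase and saccharopine dehydrogenase of lysine breakdown, was at 8.25 and 6.84. CYP71B6, a cytochrome P450 gene, and UGT87A2, a glycosyltransferase gene, differed by 1.02 and 1.26.

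Of the 56 listed nuclear genes of the photosynthetic apparatus, the annotation held 11, and most of these were slightly lower at 40 mg/L. All 11 were bright, 10 had differences below 0, and the median was -0.26. That median is of ordinary size, since the lower quartile of the differences of all 1929 genes was -0.28. None of the 11 was 2-fold lower and 1 was 2-fold higher. Among all 1929 genes, 967 had differences below 0. PSAN (-0.01), PSBW (-0.04) and RCA (-0.04) were nearly level. LHCB4.2, of the photosystem II antenna, was at 9.52 at 40 mg/L and 10.19 at 0 mg/L, SBPASE, of the Calvin cycle, differed by -0.38, LHCB4.1 by -0.37 and PSBY by -0.36. LHCB4.3, an antenna gene of the same small family, went the other way, with 6.48 at 40 mg/L and 5.34 at 0 mg/L. In chlorophyll synthesis, CHLM differed by -0.80. PORB, the light-dependent protochlorophyllide reductase gene, was at 6.24 and 7.28.

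Plastid-encoded genes lay mostly above 0. Of 69 on the annotation, 46 were bright enough to compare, and 38 of these had differences above 0, with a median of 0.49. Among all 1929 genes, 940 had differences above 0. At least 2-fold higher were 13, and none was 2-fold lower. The other 23 genes, too dim on both arrays, all had differences above 0. Of these, 9 were 2-fold higher, where 1.93% of all 11427 genes below log2 6 on both arrays were. Over all 69 genes the median was thus 0.62 and 22 were 2-fold higher. Of the dim ones, atpI, rpl20, petL, rpoC2 and psbD were also 2-fold higher in both mutants, while petN and petG were not. In atnp01 and atnp02, petD (2.81 and 1.61 in WT) differed by -0.07 and -0.03, and psaC (3.18 and 2.10) by 0.05 and 0.20. Without the plastid genome, 83 of 1883 genes, or 4.41%, were 2-fold higher.

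The plastid differences were uneven within the photosystem, ribosomal protein and NADH dehydrogenase-like groups. The 6 cytochrome b6f genes, 2 of them bright, all lay above 0, from petB (0.51) to petN (1.79). Their median was 1.255, and 4 were 2-fold higher, all of them dim. In photosystem I, ycf3, which encodes an assembly factor, was at 7.8 at 40 mg/L and 5.49 at 0 mg/L, and the core subunit gene psaB at 10.53 and 9.11, while the small subunit gene psaJ was at 6.76 and 7.09. In photosystem II, psbC, which encodes an antenna protein of the core, was at 9.57 and 8.06, and psbN at 6.58 and 4.99. The linked genes psbE, psbF, psbL and psbJ differed by 0.16, 0.12, 0.13 and 0.04, and psbA, the gene of the rapidly replaced D1 protein, by -0.16. Among genes of translation, rpl16 was at 8.20 at 40 mg/L and 6.16 at 0 mg/L, rpl14 at 8.63 and 6.74 and rps2 at 6.40 and 4.83, while rps4 differed by 0.01 and rps18 by -0.32. In the NADH dehydrogenase-like complex, ndhK and ndhJ were higher by 1.54 and 1.40, ndhC differed by 0.08 and ndhD by -0.83, the lowest plastid value. The ATP synthase gene atpH was higher by 1.5, the RNA polymerase gene rpoC1 by 1.32, psbH by 1.1 and rps19 by 1.01, and rbcL, of the large Rubisco subunit, differed by 0.81.

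The plastid genes also varied more than others among unexposed arrays. The median range over WT, atnp01 and atnp02 at 0 mg/L was 0.41 for the 46 plastid genes and 0.18 for all 1929 genes. Unexposed WT was the highest of the 3 for 34 of the 46 genes and for all 13 of the 2-fold higher ones. The 40 mg/L array lay above all 3 unexposed arrays for 34 of the 46, where it did for 40.5% of all 1929 genes. For the 13 this was fixed by their choice, since each had to be 2-fold above unexposed WT. With the mean of the 3 unexposed arrays as the unexposed level, the differences of psbC, ndhK and psbN became 2.29, 2.27 and 2.35. The poly-A spike-in probe sets, dim on both arrays, differed by a mean of -0.30 between the same 2 arrays. Whether amplification had a part in the plastid result was not tested.

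**Figure D4:**
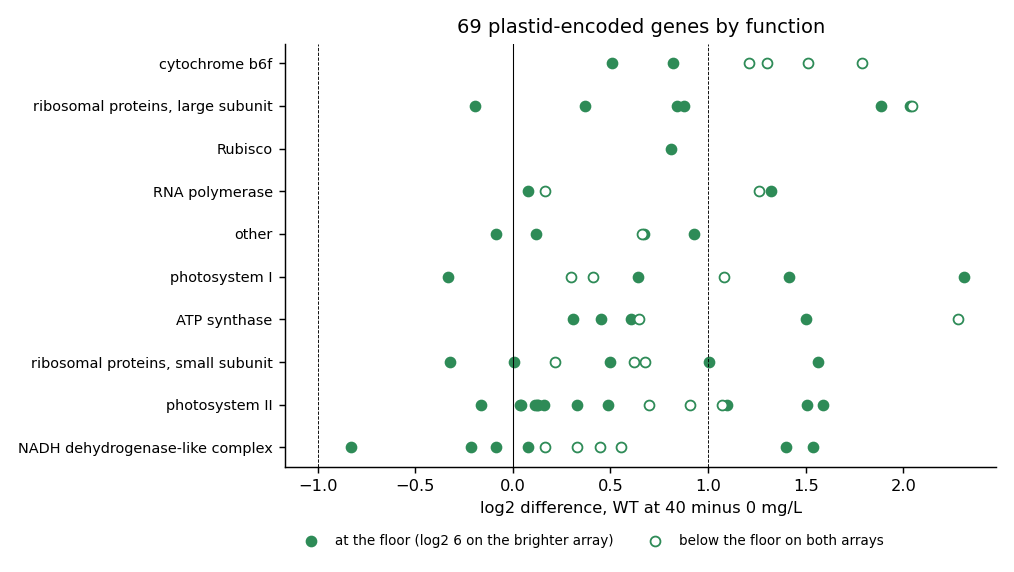
Log2 difference at 40 against 0 mg/L (horizontal axis) of the 69 plastid-encoded genes by function, sorted by the median over all annotated genes of a group; filled circles reached log2 6 on the brighter array, open circles did not, and dashed lines mark 2-fold. All 23 open circles and 38 of 46 filled ones lie right of 0. Points of the photosystem, ribosomal protein and NADH dehydrogenase-like groups spread from below 0 to above 1, and those of cytochrome b6f start at 0.51.

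Of 16 annotated mitochondrion-encoded genes, cox1, a subunit gene of the terminal respiratory oxidase, alone was bright enough to compare, at 6.04 at 40 mg/L and 4.69 at 0 mg/L. The median over all 16 was 0.24. AER, an alkenal reductase gene and the only bright member of the mitochondrial stress list, differed by -0.12.

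Set beside the inhibitory dose, the WT levels at 40 mg/L followed several patterns, given here as picked examples and not as a sorting of all genes. No overlap of the 2 doses' differences is given, since both use the WT array at 0 mg/L. At 0, 40 and 80 mg/L, BGLU28 was at 1.62, 8.89 and 7.95, MSRB5 at 6.77, 9.17 and 8.34, AT1G12030 at 1.96, 6.16 and 5.04, and GSTU27 at 7.04, 8.17 and 7.5, with the highest level at 40 mg/L. PDF1.2b stood at 3.83, 6.73 and 8.26, AT3G56360 at 4.97, 7.0 and 8.22, CCS at 7.79, 6.22 and 5.14 and AOP3 at 8.60, 7.40 and 5.90, each level at 40 mg/L lying between those at the other doses. PORB was lowest at 40 mg/L, at 7.28, 6.24 and 8.22. AT1G47400, of the iron-deficiency list, was at 1.07, 1.01 and 6.01, and the cold-regulated gene COR15B at 3.44, 3.08 and 6.39, so neither was above its 0 mg/L level at 40 mg/L. With 1 array a dose, no order among the doses was tested.

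The mutants give a reading of exposure on other arrays, although at 80 mg/L and in other lines. Of the 96 genes 2-fold higher in WT at 40 mg/L, 95 had differences above 0 between 80 and 0 mg/L in both mutants, where 38.5% of all 1929 genes did. In atnp01 78 were 2-fold higher and in atnp02 77, where 6.12% and 6.32% of all genes were. In both mutants 70, or 72.9%, were 2-fold higher, where 5.08% of all genes were. Of the 46 genes 2-fold lower in WT, 44 lay below 0 in both mutants, where 47.3% of all genes did. In atnp01 34 were 2-fold lower, against 4.1% of all genes, in atnp02 36, against 3.89%, and in both mutants 32, or 69.6%, against 2.85%.

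The median differences lay farther from 0 in the mutants at 80 mg/L than in WT at 40 mg/L. The median difference of the 96 genes was 1.42 in WT at 40 mg/L, 1.64 in atnp01 and 1.51 in atnp02 at 80 mg/L, and that of the 46 genes was -1.26, -1.72 and -1.51. As these genes were chosen for their WT difference, the WT medians are a description. Across the 1929 genes the WT difference correlated with those of atnp01 and atnp02 at r = 0.87 and 0.85 (Spearman's rho = 0.83 and 0.79). The pairs share no array, but genes are not independent replicates, all arrays share a normalization, and handling shared by exposed plants cannot be told apart from the exposure. Conversely, 51 genes were 2-fold apart in both mutants in 1 direction but not in WT at 40 mg/L, among them OCT1, whose WT difference of -0.52 stood against -2.43 in atnp01 and -2.30 in atnp02. HIS1-3, a linker histone gene, had 0.35, 1.5 and 1.41.

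A few genes differed between WT at 40 mg/L and the mutants at 80 mg/L, which are unlike in both line and dose. PORB had a difference of -1.03 in WT at 40 mg/L, against 0.46 in atnp01 and 0.93 in atnp02. AT5G55450 had -1.64, against 0.43 and 0.33. These 2 were the only genes of the 142 with the opposite sign in both mutants. At 80 against 0 mg/L in WT, PORB differed by 0.94, close to atnp02, and AT5G55450 by -1.15. AT2G31110 was higher by 1.32 in WT at 40 mg/L and differed by 0.07 and 0.29 in the mutants. AT3G28270 had a difference of 1.45 in WT, against 1.68 in atnp02 and 0.00 in atnp01, where the 2 arrays held the same value.

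**Figure D5:**
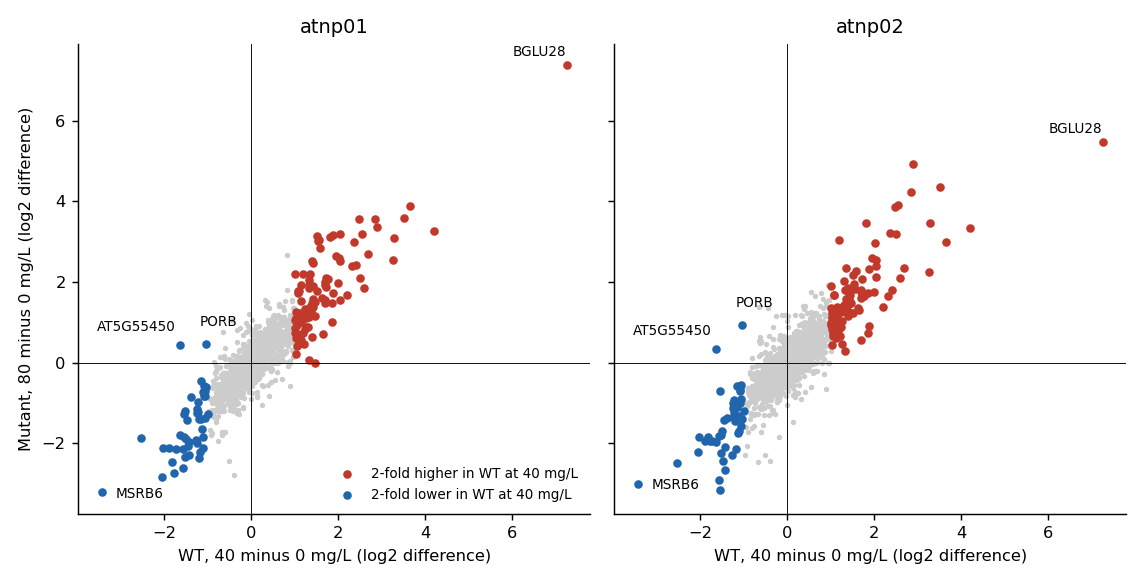
Log2 difference between 80 and 0 mg/L in atnp01 (left) and atnp02 (right) against the log2 difference between 40 and 0 mg/L in WT, for the 1929 genes; red and blue points are 2-fold higher and lower in WT at 40 mg/L. Most red points lie above 0 and most blue points below it in both panels, with PORB and AT5G55450 the blue points above 0 in both.

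The spread among unexposed arrays puts the WT differences in scale. Over the 3 lines at 0 mg/L the range of a gene's level had a median of 0.18 and a 95th percentile of 0.54, and 21 genes had a range of at least 1. For the 96 higher and 46 lower genes the median range was 0.37 and 0.35. All 96 higher genes lay above the 3 unexposed arrays, where 40.5% of all genes did, and 44 of the 46 lower genes lay below them, where 42.0% did. The exceptions were AT4G22490 and AT5G48900. Unexposed WT is one of those 3 arrays, so a 2-fold gene had already to differ from it. These arrays differ in line, and none is a repeat of WT.

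The limits used for genes are edges in a continuous distribution. AT3G61770 (6.0006) and AT5G10460 (6.0014) were the dimmest genes kept, and AT5G14460 (5.9991) and AT3G22060 (5.9975) were the brightest left out. AT5G53420 (1.00) and rps19 (1.01) were just inside the 2-fold limit and AT1G24575 (0.99) just outside. On the lower side AT2G42220 (-1.0) and PORB (-1.03) were just inside, with AT1G31710 (-0.97) outside.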

How the data were processed

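Transcript levels were read on Affymetrix ATH1 arrays. Per the submitters' processing notes, the authors made the deposited log2 values by RMA in Affymetrix Expression Console 1.1. Any further step is not given in the sources used here. On each array 5344 to 6290 values were repeats, which makes small differences of dim probe sets unreliable. No depth exists for arrays, and their number limits the precision.

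Of 22810 probe sets, 64 controls were left out, 13513 had 1 gene in the platform annotation, 503 had several and 8730 were unnamed. Symbols came from the TAIR10.1 gene table, matched for 13436, and the other 77 kept the annotation's name. Of a gene's probe sets, the one with the highest mean over 7 arrays was used (146 genes). Differences at log2 6 or above on the brighter array were counted at 1, with no p-value, in Python 3.11.15 (pandas 2.3.3), after a check on simulated data. The alternative normalizations used limma 3.58.1 (R 4.3.3). Named genes were the 15 highest and lowest, members of 32 lists and plastid genes by function, and the genes that the mutant and dose comparisons name beyond these were chosen after their values were seen. The comparison and the gene lists were chosen with earlier results of these data known.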

Additional observations from a re-analysis of the deposited data

Results flagged for a closer look

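Signal outside the named genes was as frequent as within them. Of the 2209 unnamed probe sets at log2 6 or above on the brighter array, 110 were at least 2-fold higher at 40 mg/L than at 0 mg/L (4.98%) and 47 were lower (2.13%). The highest was probe set 246884_at, at 7.71 at 40 mg/L and 2.28 at 0 mg/L, a difference of 5.43. The lowest, 266385_at, was at 4.18 and 6.92. Of 118 probe sets with several genes, 7 were 2-fold higher and 1 was lower.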

How the results depend on the processing

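No paired analysis was possible because each group had 1 array and the labels give no replicate numbers. At a limit of log2 5, 150 genes were 2-fold higher and 80 lower, at log2 7 47 and 23, and with no limit 317 and 161. Over single probe sets 213 were higher and 94 lower, and at 1.5-fold 228 and 159. The genes also 2-fold higher in both mutants numbered 34 at log2 7 and 184 with no limit, and those lower in both numbered 50 at log2 5, 18 at log2 7 and 78 with no limit. Those above all 3 unexposed arrays were 150 at log2 5, 47 at log2 7 and 316 with no limit, and those below them 76, 23 and 152. These counts follow from the number of genes or the threshold. Quantile normalization gave 91 higher and 46 lower, loess 95 and 45, a shift to equal medians 83 and 47, and the mean of the 3 unexposed arrays 98 and 38. Of 12 alternatives, 2 were added after the data were seen, and those of single probe sets and 1.5-fold recomputed counts only. The others gave 559 values of 56 named genes, of which none changed sign and 12 in 11 genes moved by 1.5-fold or more. Changing the brightness limit cannot alter a gene's own difference, so those values were fixed in advance. All 56 genes were also chosen as at least 2-fold apart, so the lack of sign changes says little. With values under log2 4 raised to log2 4, BGLU28 differed by 4.89, MSRB6 by -2.47 and AT1G12030 by 2.16. Averaging probe sets gave 1.83 for AT1G62760 and -1.08 for AT4G16980. The median of the class III peroxidase list was 0.51 at log2 5 and at log2 7 and 0.30 with no limit, against 1.83, that of the sugar list 0.47 with no limit, against 1.09, and that of the expansin list -0.37 at log2 7, against 0.27.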

Other observations

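Several annotated members of the gene lists were too dim for the comparison. Of 126 such genes outside the plastid genome, 14 were 2-fold higher at 40 mg/L and 9 lower, and 9 of the 14 were also 2-fold higher in both mutants. Over all 11427 genes below log2 6 on both arrays, 1.93% were 2-fold higher and 1.01% lower. The thionin gene THI2.1, of jasmonate-dependent defence, was at 4.92 at 40 mg/L and 0.87 at 0 mg/L, and the defensin gene PDF1.2 at 5.21 and 2.87. THI2.2, another thionin gene of the same list, was lower, at 2.39 and 3.95. Of the 5 annotated genes of that list 3 were 2-fold higher and 1 was lower, PDF1.2b included. THI2.1 differed by 4.07 in atnp02 and by -0.95 in atnp01 between 80 and 0 mg/L. The anthocyanin genes DFR (5.74 at 40 mg/L and 3.66 at 0 mg/L) and UF3GT (4.11 and 2.89) were higher. GSTU25, a glutathione transferase gene, was at 4.93 and 3.20, while its differences in the mutants were 0.01 and 0.53. The auxin-response gene IAA29 was lower, at 2.02 and 4.04, as was the tonoplast sugar transporter gene SWEET16, at 3.62 and 4.66.

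Beta-glucosidase genes were counted as a family after their values were seen. Of 21 annotated by that symbol or as PYK10, 7 were 2-fold higher and none was 2-fold lower, against 2.37% and 1.21% of all annotated genes. Of these 21, 7 were bright enough to compare and 5 of those 2-fold higher, 4 of which passed the limit through the 40 mg/L array alone. The neighbours BGLU28 and BGLU15 differed by 7.27 and 1.89, the neighbours BGLU45 and BGLU46, of monolignol glucoside hydrolysis, by 1.43 and 1.39, and BGLU16 by 1.03. BGLU44 (-0.43) and PYK10 (0.13) were less than 2-fold apart. The dimmer BGLU27 and BGLU47 differed by 2.78 and 1.28.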
